A study of Homo sapiens with 6 samples.

Results

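The cytosolic ribosomal protein genes were examined in RNA-seq data of *FGFR2* KO and WT HaCaT keratinocytes. The members were the protein-coding genes whose symbol is *RPL* or *RPS* followed by a digit, together with *RPLP0*, *RPLP1*, *RPLP2* and *RPSA*. This rule, from which the S6 kinases (*RPS6K* genes) and pseudogenes were dropped, matched 91 of the 21493 genes listed for each library. Of these, 77 were canonical ribosomal protein genes, 46 of the large and 31 of the small subunit. The other matches were 8 paralogs, 2 Y-linked paralogs for which no level is given, 3 readthrough loci and *RPS19BP1*, which encodes no ribosomal protein. The rule uses symbols and no measured value, although it was set with earlier results of these data known.

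HaCaT cells are human keratinocytes that became immortal spontaneously. The study compared 3 WT with 3 *FGFR2* KO HaCaT cell lines, all grown in serum-containing DMEM, with 1 library per line. The KO lines are single-cell clones obtained with Cas9 and an sgRNA against exon 7 of *FGFR2*, which encodes a receptor for fibroblast growth factors. The sequenced WT lines are described as clonally expanded too, although the WT lines of the study as a whole also include the parental population, and which line gave which WT replicate is not used here. Each KO replicate is thus 1 clone, and differences between clones that do not come from the KO cannot be told apart from it with these lines. The libraries were poly(A)-selected, stranded and sequenced to an estimated 67900000 to 88200000 fragments. Of the keratinocyte markers, *KRT5* lay between 6086 and 14768 FPKM, and the lowest value among all 8 was 104 FPKM, of *DSG3* in KO replicate 3. The 4 immune markers reached at most 0.228 FPKM and the melanocyte markers *MLANA*, *TYR* and *DCT* at most 0.0208 FPKM, while *PMEL* had 0.697 to 2.43 FPKM and *MITF* 0.529 to 4.01 FPKM. Of the 6 fibroblast markers, *COL1A1* had 6.82 to 16.7 FPKM. *DCN* had 15.5 FPKM in WT replicate 2 and at most 1.66 FPKM elsewhere. *LUM* had 0.903 FPKM in WT replicate 2 and 1.85 FPKM in KO replicate 1. *COL1A2*, *COL3A1* and *PDGFRB* had at most 0.0638 FPKM in any library. The part of cells with fibroblast markers in the values of WT replicate 2 was not tested. *FGFR2* itself was at 21.6, 39.7 and 15.02 FPKM in WT replicates 1 to 3 and at 3.04, 2.26 and 4.31 FPKM in KO replicates 1 to 3. The KO libraries were thus all below the WT libraries.

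Each ribosome contains 1 copy of nearly every ribosomal protein, and their mRNAs are among the most abundant of a growing cell. Many of these mRNAs begin with a cytosine followed by an uninterrupted run of pyrimidines, the terminal oligopyrimidine (TOP) motif, through which mTOR and LARP1 control their translation. Surplus ribosomal proteins are degraded. Growth factor signals act on the making of ribosomes through the S6 kinases, 4E-BP and MYC. *RPL27* also serves as a reference gene for RT-qPCR and had this role in the study.

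The start of the annotated transcript is shown for genes that recur in the results, to let the pyrimidine run be compared between them. Each window has 10 bases before and 15 bases from the RefSeq start (GRCh38.p14), and capitals mark the uninterrupted run of C and T that begins with a C at the start. *RPL35*, *RPL7A*, *RPL13A*, *RPS24*, *RPLP1* and *RPL22* begin with such a run. *RPL27* and *RPL4* do not at this annotated start.
RPL35, chr9:124861943-124861967, minus strand: cgcctacttcCTCTTTCCCTCggag
RPL7A, chr9:133348208-133348232, plus strand: attccctttcCTTTCTCTCTCCTCC
RPL13A, chr19:49487598-49487622, plus strand: aaacctcctcCTTTTCCaagcggct
RPS24, chr10:78033853-78033877, plus strand: aatcgtggttCTCTTTTCCTCCTTg
RPLP1, chr15:69452808-69452832, plus strand: ggcgcgagagCCCCTTTCCTCagct
RPL22, chr1:6199581-6199605, minus strand: cgctcacctcCCTTTCTaactccgc
RPL27, chr17:42998409-42998433, plus strand: gtgaaaggttagcggaagtgtcctt
RPL4, chr15:66504841-66504865, minus strand: cgggagtggtaagcacttccttttc
A window was found for 62 of the 77 canonical genes. A C at the start followed by at least 4 further pyrimidines was present in 42 of these (67.7%) and in 4.1% of all 35116 promoters of the table. Of 12 other mRNAs known to carry a TOP motif, 10 had it, and of the paralogs 1 of 6. A looser form, a C within 10 bases of the start followed by at least 6 pyrimidines, was counted too. It was present in 49 of the 62 (79.0%) and in 13.5% of all promoters, in 9 of the 12 other mRNAs and in 2 of the 6 paralogs. These counts describe annotated starts and not the starts used in HaCaT cells. In the table of starts no entry was found for genes that include *RPL37*, *RPL7*, *RPS2*, *RPS15A*, *RPL30*, *RPS20*, *RPL8*, *RPL23A*, *RPL5* and *RPL23*, nor for the paralogs *RPL39L* and *RPL3L*.

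The canonical genes formed a large part of the transcriptome in every line. FPKM, fragments normalized for transcript length and depth, allow levels of different genes to be compared per length. The 77 genes summed to 50810, 62137 and 58395 FPKM in WT replicates 1 to 3 and to 62086, 48970 and 67928 FPKM in KO replicates 1 to 3. This was 57114 ± 5771 FPKM in WT and 59661 ± 9709 FPKM in KO (SD, n = 3 lines each), and the groups overlapped, with the lowest and the highest sum both in KO lines. As a share of the FPKM of all nuclear genes the sum was 9.72% ± 0.68 in WT and 9.57% ± 1.01 in KO. mRNAs of the mitochondrial genome took 27.6, 21.5 and 22.2% of all FPKM in WT and 15.8, 23.7 and 11.9% in KO, most in WT replicate 1 and KO replicate 2, which had the lowest ribosomal protein sums. The part of this share in the differences between libraries was not tested. Relative to nuclear genes alone, KO replicate 2 (8.46%) and WT replicate 1 (9.0%) were still the lowest of the 6.

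The balance of the subunits was nearly the same in all lines. Summed FPKM of the large subunit genes was 1.82 ± 0.03 times that of the small subunit genes in WT and 1.82 ± 0.04 times in KO (SD, n = 3). Among the single libraries the ratio ran from 1.79 to 1.87, and it was highest in KO replicate 2 and WT replicate 1.

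Levels of single genes spanned a 33.1-fold range of means. *RPS2*, a protein of the small subunit near the mRNA entry, was the highest, with 2531, 2662 and 3040 FPKM in WT and 3543, 2397 and 4093 FPKM in KO. *RPL41*, which encodes the shortest ribosomal protein, had 1833, 2959 and 1974 FPKM in WT and 2448, 1640 and 2872 FPKM in KO. *RPL4*, a large subunit protein that lines the exit tunnel, had 1876, 2466 and 2331 FPKM in WT and 2395, 1850 and 2593 FPKM in KO. In each of these 3 genes KO replicate 2 was the lowest library and the groups overlapped. *RPS2* lay above *RPL4* in all 6 libraries, whereas the order of *RPL41* against both differed between libraries. The lowest genes were *RPL34* (60.4 to 125 FPKM over the 6 libraries), *RPL14* (72.9 to 125 FPKM) and *RPS29* (76.8 to 115 FPKM). In all, 17 members averaged at least 1000 FPKM and 5 at most 200 FPKM, and the 10 highest made up 32.9% of the sum. Proteins present in equal copy number were thus encoded by mRNAs of very different level per length. The transcript length behind the FPKM of a gene with several transcripts is not given in the sources used here, which limits such comparisons.

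No canonical ribosomal protein gene was called between KO and WT at a limma adjusted p of 0.05 or less with a log2 fold change of 0.5 or more in either direction. The study applied such limits to its own test in DESeq2, which was not run here. In limma 0% of all 12241 genes tested were called, and the smallest adjusted p was 0.26. *FGFR2* itself (log2 fold change -2.73, SE 0.36, limma adjusted p = 0.26) was not called, so the lack of calls does not show that the members were equal in KO and WT. At an unadjusted p of at most 0.05, 1677 of all genes (13.7%) were higher and 388 (3.17%) were lower in KO, against 0 and 0 of the 77 members. All 77 passed the filter of a mean of at least 0.5 FPKM. None reached an absolute log2 fold change of 0.5, which 2377 of all genes did.

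The differences of the members between the groups were small. On the log2 scale 53 were higher and 24 lower in KO, with a median fold change of 0.08 and a range from -0.31 to 0.38. The median of all genes tested was 0.09, and 34 of the 77 members lay above it. With median-of-ratios scaling, which moved the median of all genes to -0.02, 31 of the 77 were higher in KO, so the direction of the list was not set by these data. The large subunit genes (33 of 46 higher, median 0.06) and the small subunit genes (20 of 31 higher, median 0.09) gave similar counts. KO lay above WT in all libraries for 1 of the 77 members, *RPL27*, and below it for 2, among them *RPLP1*, against 18.3% and 5.77% of all genes tested.

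**Figure D1:**
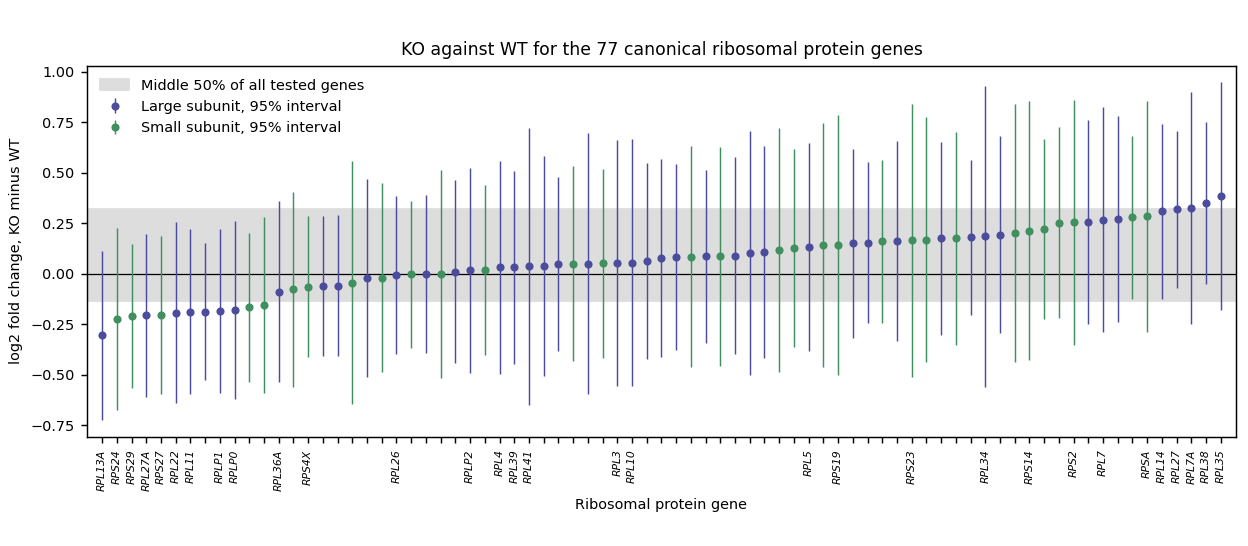
log2 fold changes (KO minus WT) with 95% intervals from limma for the 77 canonical genes, ordered along the horizontal axis, coloured by subunit and with names for part of them, with the middle 50% of all tested genes as a grey band. Values run from -0.31 for *RPL13A* to 0.38 for *RPL35*, and every interval includes 0.

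The members with the highest fold changes were *RPL35*, *RPL38*, *RPL7A*, *RPL27*, *RPL14* and *RPSA*. *RPL35*, next to the exit of the tunnel for the nascent chain, had 1262, 1078 and 1545 FPKM in WT and 1879, 1278 and 1946 FPKM in KO. The log2 fold change was 0.38 (SE 0.24, limma adjusted p = 0.44), and KO replicate 2 lay within the WT range. *RPL38*, a small protein of the large subunit, had 289, 303 and 279 FPKM in WT and 395, 299 and 429 FPKM in KO (log2 fold change 0.35, SE 0.17, limma adjusted p = 0.34). *RPL7A* had 1548, 1714 and 1864 FPKM in WT and 2353, 1562 and 2651 FPKM in KO (0.33, SE 0.25). *RPSA*, a small subunit protein also known as the laminin receptor precursor, had 294, 422 and 367 FPKM in WT and 452, 319 and 570 FPKM in KO (0.28, SE 0.25). In each of these 4 genes KO replicates 1 and 3 were above every WT line and KO replicate 2 was not. *RPL14* behaved likewise, with 105 and 125 FPKM in KO replicates 1 and 3, 81.2 FPKM in KO replicate 2 and 72.9 to 89.5 FPKM in WT.

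The members with the lowest fold changes were *RPL13A*, *RPS24*, *RPS29*, *RPL27A*, *RPS27* and *RPL22*. *RPL13A*, known also for a role outside the ribosome in silencing the translation of inflammatory mRNAs, had 714, 978 and 808 FPKM in WT and 717, 608 and 686 FPKM in KO. Its log2 fold change was -0.31 (SE 0.18, limma adjusted p = 0.41), and KO replicate 1 overlapped WT replicate 1. *RPS24*, a small subunit protein mutated in some patients with Diamond-Blackfan anemia, had 835, 1112 and 856 FPKM in WT and 724, 740 and 927 FPKM in KO (-0.23, SE 0.19). It is the only canonical member on chromosome 10, where *FGFR2* lies. In KO replicate 1 the 463 tested genes of that chromosome had a median of 0.33 log2 units below the WT mean. *RPS24* was 0.35 below it in that library. In KO replicate 2, *RPS24* was at -0.32 log2 units and the chromosome median at -0.11. In KO replicate 3 the values were 0.0008 and -0.05. With chromosome medians removed, the log2 fold change of *RPS24* was -0.07. What the chromosome contributed to the *RPS24* values was not tested. *RPS27* had 1041, 1257 and 1194 FPKM in WT and 940, 1040 and 1043 FPKM in KO (-0.21, SE 0.17), *RPS29* had a log2 fold change of -0.21 and *RPL27A* of -0.21. Each of these genes overlapped between the groups.

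The acidic stalk of the large subunit, which recruits translation factors, is made of the proteins of *RPLP0*, *RPLP1* and *RPLP2*. *RPLP1* had 1667, 1721 and 1699 FPKM in WT and 1581, 1350 and 1556 FPKM in KO. All KO lines lay below all WT lines, by a log2 fold change of -0.18 (SE 0.17, limma adjusted p = 0.60). *RPLP0*, which anchors the stalk, had 1797, 1981 and 2019 FPKM in WT and 1691, 1519 and 1924 FPKM in KO (-0.18, SE 0.19), with KO replicate 3 inside the WT range. *RPLP2* had 780, 1224 and 940 FPKM in WT and 990, 852 and 1101 FPKM in KO (0.02, SE 0.22). Differences of this size were within the spread that limma estimated for the 6 lines.

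The level of the members as a whole varied more between lines of 1 group than between the groups. Relative to the WT mean, the median of the 77 members was -0.19, 0.17 and 0.02 log2 units in WT replicates 1 to 3 and 0.17, -0.24 and 0.32 in KO replicates 1 to 3. The median of all genes tested stayed between -0.04 and 0.15 in the same libraries. Below the WT mean lay 73 of the 77 members in WT replicate 1 and 70 in KO replicate 2, 33 in WT replicate 3, and 14 in WT replicate 2, 13 in KO replicate 1 and 11 in KO replicate 3. KO replicate 3 was the highest library for 47 members and WT replicate 2 for 17. KO replicate 2 was the lowest for 36 and WT replicate 1 for 28. WT replicate 1 and KO replicate 2 thus lay at the low end, WT replicate 3 in between, and the order of the lines did not follow KO and WT. Without WT replicate 1 and KO replicate 2, left out after these values were seen, the median log2 fold change was 0.11. In that fit 59 of 77 members were higher and 0 called (limma, 2 against 2 libraries). The median of all genes tested was 0.09 there, and 7228 of 12241 were higher. In bulk RNA, a difference in the mRNA content of the cells cannot be told apart from one in these mRNAs alone.

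**Figure D2:**
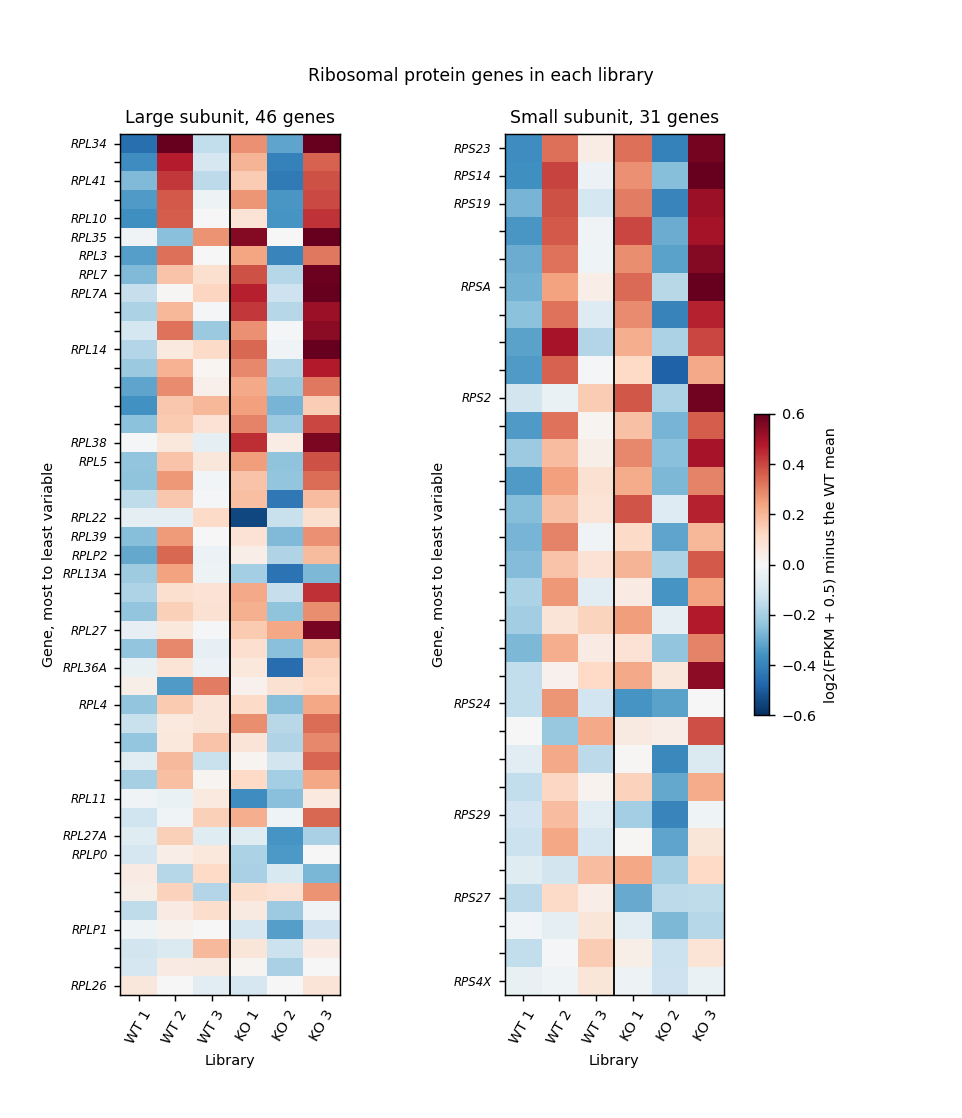
Heatmap of the 46 large and 31 small subunit genes (rows, ordered by their SD over the 6 libraries, with names for part of them) in each library (columns), as log2 differences from the mean of WT. WT replicate 1 and KO replicate 2 are mostly blue (73 and 70 members below the WT mean), KO replicate 3 mostly red, and the vertical line separates WT from KO.

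The extent of this swing differed between members. *RPL34*, of the large subunit, had the widest spread, with 60.4, 125 and 74.6 FPKM in WT and 100, 66.2 and 125 FPKM in KO, an SD of 0.46 log2 units over the 6 libraries. *RPS23*, a protein of the decoding centre, had 202, 330 and 271 FPKM in WT and 330, 198 and 391 FPKM in KO, with an SD of 0.40. *RPS14* and *RPS19*, further small subunit proteins, had SDs of 0.39 and 0.38. At the other end, *RPS4X* stayed at 828, 838 and 897 FPKM in WT and 836, 785 and 830 FPKM in KO (SD 0.06). *RPL26* stayed at 1512, 1439 and 1378 FPKM in WT and 1346, 1442 and 1523 FPKM in KO (SD 0.07). These genes were picked from the ends of the ranking, so their spread is a description.

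*RPL27* (chr17:42998273-43002959, plus strand) was the only canonical member whose KO libraries all lay above its WT libraries. This protein of the large subunit had 527, 570 and 541 FPKM in WT and 608, 641 and 809 FPKM in KO. The log2 fold change was 0.32 (SE 0.17, 95% interval -0.07 to 0.71, limma adjusted p = 0.36). A two-sided exact permutation test over the 3 and 3 lines gave p = 0.1, the smallest p that this design allows. *RPL27* did not take part in the low values of KO replicate 2, where it made up 1.31% of the summed canonical FPKM, against 1.04, 0.917 and 0.926% in WT and 0.979 and 1.19% in KO replicates 1 and 3. It lies on chromosome 17, whose 757 tested genes had a median of 0.20 log2 units above the WT mean in KO replicate 2 and of 0.24 in KO replicate 3. In WT replicate 3 the median of that chromosome was 0.18 below the WT mean. Of the 6 canonical members on chromosome 17, 2 were below the WT mean in KO replicate 2, against 70 of all 77. When chromosome medians were subtracted in every library, the log2 fold change of *RPL27* was 0.13 (SE 0.15). This subtraction also moved the median of all genes tested from 0.09 to -0.02. The part of the chromosome in the *RPL27* values was not tested. Without KO replicate 3, and with no such subtraction, the log2 fold change of *RPL27* was 0.19.

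A value measured relative to *RPL27* shifts with it. *FGFR2* in KO was 12.6% of the WT mean in FPKM and 10.0% as a ratio to *RPL27*, 9.65% as a ratio to *GAPDH* and 9.54% as a ratio to *TBP*. The interval of the *RPL27* difference includes 0, and the loss of *FGFR2* mRNA had the same direction with each reference. Of 17 genes in common use as references, 13 were higher in KO, against 60.6% of all genes tested. The median log2 fold change of the 17 was 0.30 (0.19 without KO replicate 3). *SDHA*, a mitochondrial enzyme subunit, was the steadiest, with 178, 174 and 187 FPKM in WT and 181, 188 and 203 FPKM in KO (SD 0.08 log2 units over 6 libraries). *RPL27* had an SD of 0.23, close to the median of the 77 members (0.24). *TUBA1B* (log2 fold change 0.78), *HPRT1* (0.74) and *ACTB* (0.71) differed most, and *VCL* (-0.16) and *POLR2A* (-0.14) were lowest. No reference gene was called by limma.

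**Figure D3:**
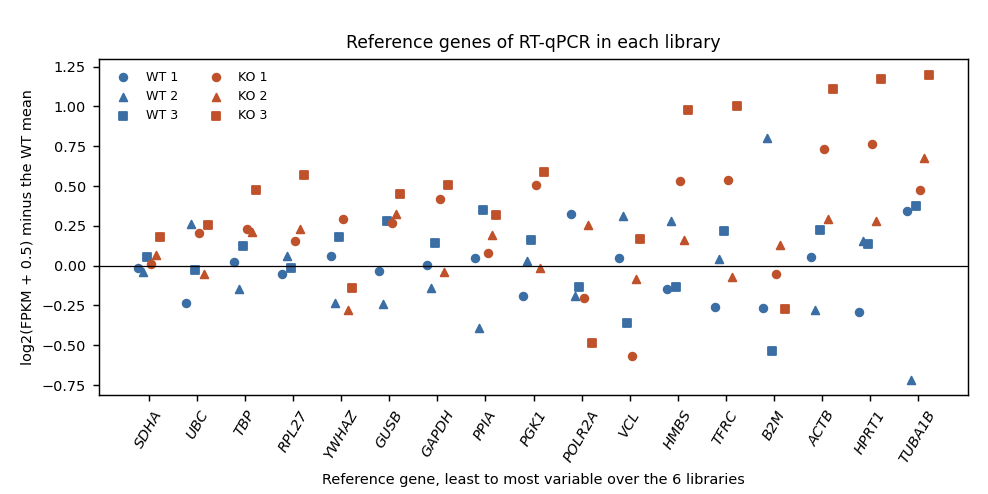
log2 difference from the WT mean of 17 genes in common use as references in the 3 WT (blue) and 3 KO (orange) libraries, ordered from least to most variable. The KO points of *RPL27* all lie above its WT points, and *SDHA* on the left has the smallest spread (SD 0.08).

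Some paralogs of ribosomal proteins can replace the parent protein in the ribosome. *RPL22L1* shares 66.6% of aligned coding bases with *RPL22* and no run of 31 bases, so that reads of these genes can be separated. A stretch of both coding sequences is shown from GENCODE 44, bases 168 to 293 of *RPL22L1* and 186 to 311 of *RPL22*, with the 33 bases that differ in capitals. Both lie in coding exons, of *RPL22L1* at chr3:170864875-170870208 and *RPL22* at chr1:6185020-6209389, minus strand.
RPL22L1: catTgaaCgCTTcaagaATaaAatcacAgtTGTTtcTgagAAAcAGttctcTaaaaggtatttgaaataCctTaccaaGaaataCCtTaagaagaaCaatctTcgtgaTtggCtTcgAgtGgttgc
RPL22: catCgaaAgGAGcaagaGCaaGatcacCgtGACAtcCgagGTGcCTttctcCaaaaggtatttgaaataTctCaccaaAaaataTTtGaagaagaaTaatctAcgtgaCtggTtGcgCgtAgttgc
*RPL22L1* had 8.86, 14.3 and 11.02 FPKM in WT and 58.7, 12.1 and 27.6 FPKM in KO. It stood high in KO replicates 1 and 3, while KO replicate 2 lay within the WT range (log2 fold change 1.24, SE 0.50, limma adjusted p = 0.29). *RPL22* had 372, 373 and 419 FPKM in WT and 265, 353 and 414 FPKM in KO, lowest in KO replicate 1 (-0.19, SE 0.19). Without KO replicate 1 the log2 fold change was 0.69 for *RPL22L1* and -0.02 for *RPL22*, and without KO replicate 2 that of *RPL22L1* was 1.80. *RPL22L1* thus amounted to 22.1% of *RPL22* in KO replicate 1 and to 6.66% in KO replicate 3, against 2.39 to 3.84% in the other 4 libraries.

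*RPL22* lies near the start of chromosome 1, in a stretch that was low as a whole in KO replicate 1. Of the first 30 Mb of this chromosome, chosen after the values were seen, 256 tested genes had a median of 0.30 log2 units below the WT mean in KO replicate 1. The other 1007 tested genes of the chromosome had a median of 0.13 above it. KO replicate 1 was the lowest library for 54.3% of the genes in the stretch and for 7.65% of the others. *RPL11* (chr1:23691742-23696835), which binds MDM2 together with *RPL5* and 5S rRNA, lies in it too and had 896, 887 and 949 FPKM in WT and 703, 766 and 949 FPKM in KO, lowest in KO replicate 1. *RPL5*, on the same chromosome outside the stretch, had 726, 966 and 898 FPKM in WT and 1020, 725 and 1117 FPKM in KO. The number of DNA copies was not measured in these files, and its part in these values was not tested.

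*RPL39L* shares 94.9% of its 156 coding bases with *RPL39*, a tunnel protein, and only 7.3% of the 31-base runs of its transcript occur in *RPL39*. The coding sequences (GENCODE 44) are shown whole because they are so alike, with the 8 bases that differ in capitals. They lie in exons of *RPL39L* at chr3:187120948-187180908 and of *RPL39* at chrX:119786504-119791630, minus strand.
RPL39L: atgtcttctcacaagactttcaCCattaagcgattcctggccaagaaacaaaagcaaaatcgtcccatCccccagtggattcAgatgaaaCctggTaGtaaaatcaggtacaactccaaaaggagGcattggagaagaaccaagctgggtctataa
RPL39: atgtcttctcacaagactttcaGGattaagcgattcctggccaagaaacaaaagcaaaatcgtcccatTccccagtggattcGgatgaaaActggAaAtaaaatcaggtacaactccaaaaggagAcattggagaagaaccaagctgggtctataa
*RPL39L* had 23.8, 14.3 and 27.04 FPKM in WT and 28.7, 31.04 and 45.1 FPKM in KO, so that all KO lines were above all WT lines (log2 fold change 0.70, SE 0.27, limma adjusted p = 0.28). *RPL39* had 365, 521 and 435 FPKM in WT and 463, 362 and 528 FPKM in KO (0.03, SE 0.20). Reads from the shared bases could be assigned to either gene.

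*RPL7L1*, a factor of large subunit assembly that is only 55.3% identical to *RPL7* in coding sequence, also lay higher in all KO lines. It had 57.8, 65.2 and 66.5 FPKM in WT and 85.6, 71.1 and 118 FPKM in KO (0.50, SE 0.20, limma adjusted p = 0.28). *RPL7* had 565, 766 and 726 FPKM in WT and 887, 604 and 1022 FPKM in KO (0.27, SE 0.24). The remaining paralogs overlapped between the groups. *RPL36AL* was the most abundant and the steadiest paralog, with 148 to 169 FPKM, and its parent *RPL36A* had 366 to 551 FPKM (log2 fold changes 0.05 and -0.09). *RPL26L1* had 32.4 to 48.2 FPKM (0.24) and *RPS27L*, a target of p53, 6.34 to 11.1 FPKM (0.25). *RPL3L*, the muscle form of *RPL3*, had 0.390 to 3.07 FPKM, lowest in KO replicate 3 (-0.37), while *RPL3* had 674 to 1117 FPKM (0.05). *RPL10L*, the testis form of *RPL10*, was listed at 0 in all 6 libraries, and *RPL10* had 363 to 633 FPKM (0.05). The readthrough loci *RPL17-C18orf32* (7.87 to 21.0 FPKM), *RPL36A-HNRNPH2* (19.1 to 73.5 FPKM) and *RPS10-NUDT3* (2.89 to 5.55 FPKM) share exons with the genes they join, so their reads are uncertain. Among these loci only *RPS10-NUDT3* lay higher in all KO lines (log2 fold change 0.51, SE 0.20, limma adjusted p = 0.28). Of the 7 paralogs tested, 6 had a positive log2 fold change and 3 (*RPL22L1*, *RPL39L* and *RPL7L1*) an unadjusted p of at most 0.05 in limma. Of all genes tested, 60.6% had a positive log2 fold change and 13.7% were higher at that unadjusted p. All KO lines lay above all WT lines for 2 of the 7 paralogs, *RPL39L* and *RPL7L1*, against 18.3% of all genes tested.

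*FAU*, which encodes a ribosomal protein fused to a ubiquitin-like protein, and *RACK1*, a protein of the small subunit, carry other symbols and fell outside the rule. *FAU* had 206, 321 and 240 FPKM in WT and 311, 224 and 351 FPKM in KO (0.21). *RACK1* had 829, 878 and 986 FPKM in WT and 978, 834 and 1099 FPKM in KO (0.11). WT replicate 1 was the lowest library for both genes, and KO replicate 2 the next lowest.

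Other mRNAs with a TOP motif were compared as a group. They encode mainly elongation and initiation factors. Of 17, 9 were higher in KO, against 60.6% of all genes tested, with a median log2 fold change of 0.07 (-0.04 without KO replicate 3). Of these mRNAs 1, of the nucleolar protein gene *NPM1* (0.75), reached an unadjusted p of at most 0.05 in limma. The highest after it was *EEF1B2* (0.21), and *TPT1* (-0.36) and *EEF1G* (-0.22) were the lowest. Their median per library was -0.13, 0.06 and 0.08 in WT and 0.04, -0.12 and 0.28 in KO, lowest in the same 2 libraries as the ribosomal proteins. Canonical members with the stricter TOP-like start (42, median log2 fold change 0.05) and without it at the annotated start (20, median 0.09) were lowest in these 2 libraries as well. Some of the 20, among them *RPL4*, had the looser form near the start.

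Genes for the assembly of ribosomes gave other values in the same libraries. All 41 genes of a list of assembly factors had higher means in KO, with a median log2 fold change of 0.70, and 32 had an unadjusted p of at most 0.05 in limma, though 0 were called after adjustment. Of all genes tested, 13.7% were higher in KO at that unadjusted p. KO lay above WT in all libraries for 34 of the 41, against 18.3% of all genes tested. The highest were *BOP1* (1.63) and *NOP56* (1.43), and the lowest *RIOK2* (0.11) and *NOP10* (0.23). Their median per library was -0.03, -0.11 and 0.16 in WT and 0.55, 0.45 and 1.14 in KO, so KO replicate 2, the line with the lowest ribosomal protein mRNAs, was above every WT line. This list was known from earlier results to be higher in KO and is not independent evidence. A group of 6 dedicated chaperones of ribosomal proteins had higher means in KO for all 6 (median 0.32), from *TSR2* (0.14) and *BCCIP* (0.24) to *HEATR3* (0.72) and *GRWD1* (0.87), with 0 called and a median of 0.19 without KO replicate 3. Of 12 regulators of growth and of TOP mRNAs, 9 were higher (median 0.21, 0 called), with a median of 0.38 without KO replicate 1. At an unadjusted p of at most 0.05 in limma, 5 of the 12 were higher and 1 was lower. Of all genes tested, 60.6% had a positive log2 fold change, and 13.7% were higher and 3.17% lower at that unadjusted p. Among the regulators, *EIF4EBP1* (0.90), which encodes a translation repressor inactivated by mTOR, and *MYC* (0.80) were the highest, and *EIF4EBP2* (-0.48) and *EEF2K* (-0.31) the lowest.

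**Figure D4:**
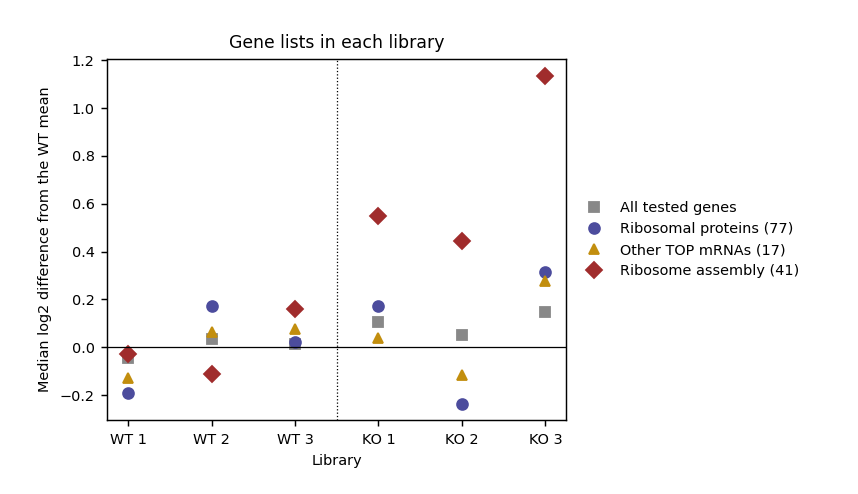
Median log2 difference from the WT mean for all tested genes, the 77 ribosomal protein genes, 17 other TOP mRNAs and 41 ribosome assembly genes in each library. In KO replicate 2 the ribosomal proteins are at -0.24 and the assembly genes at 0.45.

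Ribosomal protein genes have many processed copies in the genome, which bears on how reads are assigned. A median of 48.7% of the 31-base runs of the member transcripts (4.6 to 96.7%) also occurred in transcripts of another annotated gene. The 35 members that shared at least 50% had a median log2 fold change of 0.08, and the 42 that shared less one of 0.03. Of the 35, 29 were higher in KO, and of the 42, 24, against 60.6% of all genes tested. The part of read assignment in these counts was not tested. Among the 19 that shared under 20%, the median was 0.02, and WT replicate 1 (-0.15) and KO replicate 2 (-0.22) were again the lowest libraries. For *RPL27* the share was 28.6%.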

How the data were processed

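RNA of 3 WT and 3 *FGFR2* KO HaCaT lines was analysed. The authors trimmed reads with fastp 0.20.0 and pseudoaligned them with kallisto 0.46.1 to GRCh38.p13, per the submitters' processing notes and the methods (GENCODE 37 gene models). The values the authors deposited are FPKM per gene and library, and how they were derived from the estimated counts is not given in the sources used here. Depth was estimated from the steps between low FPKM values, and 0 columns of other samples were present. Symbols and positions came from GENCODE 44, and 18 Y copies of pseudoautosomal genes were left out.

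From these values log2(FPKM + 0.5) was computed, and KO was compared with WT with limma 3.58.1 in R 4.3.3 (mean-variance trend, Benjamini-Hochberg adjustment) for the 12241 genes averaging 0.5 FPKM or more. Fold changes of low genes are understated on this scale. The script was tested on simulated data. The replicates are separate cell lines. Same-numbered WT and KO libraries had correlations of -0.206, 0.225 and 0.049 in their deviations from the group means, so the numbers did not pair them. Sequence runs of 31 bases were compared between GENCODE 44 transcripts. Identity of paralogs was taken from global alignments of coding sequences, where protein sequences had been planned.

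The members and lists were chosen with earlier results of these data known. Genes named were *RPL27*, the members with the 3 highest and 3 lowest means, those with the 6 largest and 6 smallest log2 fold changes, members on chromosome 10, paralogs with their parents, *FAU*, *RACK1*, *FGFR2*, cell type markers, and the ends of each other list. All other genes given with values, among them *RPLP0*, *RPLP1*, *RPLP2*, *RPL5*, *RPL11*, *RPS4X*, *RPS14*, *RPS19*, *RPS23*, *SDHA*, *GAPDH*, *TBP* and *ACTB*, were chosen after their values were seen or for their role. Some genes are not reported here. Alternatives were other pseudocounts, filters, scalings, variance models, library weights, a replicate block and leaving out libraries.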

Additional observations from a re-analysis of the deposited data

How the results depend on the processing

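No canonical ribosomal protein gene was called under any alternative. Across all genes 0 were called, except that library weights, which gave WT replicate 1 a weight of 10.3, called 1396. At an unadjusted p of at most 0.05 in limma there were 2065 genes in the main fit. The alternatives gave from 957 (KO replicate 3 omitted) to 4372 (library weights). The median log2 fold change of the 77 members had no stable sign. It was -0.0015 with scaling to nuclear genes, -0.0353 with median-of-ratios scaling and -0.0296 with chromosome medians removed, an alternative chosen after seeing the data, as was leaving out WT replicate 1 with KO replicate 2. Leaving out 1 library gave medians of -0.0506 (WT replicate 1 omitted) to 0.2449 (KO replicate 2 omitted), and of -0.0429 with KO replicate 3 omitted. The highest median was 0.282, with library weights, where 62 members were higher and the median of all genes was 0.128. TPM scaling gave 0.117 with 59 members higher, at a median of all genes of 0.125. The number of members higher in KO was 31 with median-of-ratios scaling, 29 with chromosome medians removed and 29 to 63 on leaving out 1 library (30 without WT replicate 1). *RPL27* stayed higher in KO under every alternative run for it, at 0.194 to 0.399 on leaving out 1 library. With the replicate number as a block, 0 genes were called, the median was 0.0788 with 53 members higher, and *RPL27* was at 0.318 (limma adjusted p = 0.41), so the block changed no call.

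For 51 named genes besides *RPL27*, 895 of 968 alternative values kept direction and side of the threshold, 62 changed sign and 11 became called, under library weights. Scaling to *RPL27* lowers the log2 fold change of all genes alike (median of all genes -0.21), so sign changes of genes below that of *RPL27* follow from its construction. It gave *RPSA* -0.035, *RPL14* -0.009, *RPS2* -0.064, *RPL41* -0.283, *RPL4* -0.288, *RPL34* -0.131, *RPL26L1* -0.078, *RPL36AL* -0.27, *RPS27L* -0.049, *RPL3* -0.266, *RPL7* -0.051, *RPL10* -0.264, *RPL39* -0.286, *FAU* -0.110, *RACK1* -0.212, *EEF1B2* -0.112, *RIOK2* -0.194, *NOP10* -0.083, *TSR2* -0.172 and *BCCIP* -0.075. Scaling to nuclear genes gave *RPL41* -0.044, *RPL4* -0.050, *RPL36AL* -0.032, *RPL3* -0.028, *RPL10* -0.026 and *RPL39* -0.048. Median-of-ratios scaling gave *RPL41* -0.078, *RPL4* -0.083, *RPL36AL* -0.066, *RPL3* -0.062, *RPL10* -0.060, *RPL39* -0.082 and *RACK1* -0.007. Quantile normalization gave *RPL36AL* -0.074, *RPL10* -0.058 and *RPL39* -0.051, TPM scaling gave *RPL26* 0.031, and library weights gave *RPL3L* 0.234 and *BCCIP* -0.033. Leaving out 1 library at a time gave ranges that include 0 for *RPL41* (-0.137 to 0.267), *RPL4* (-0.087 to 0.174), *RPL34* (-0.040 to 0.484), *RPL3L* (-0.856 to 0.147), *RPL3* (-0.112 to 0.277), *RPL10* (-0.136 to 0.259), *RPL26* (-0.050 to 0.039), *RPL36A* (-0.197 to 0.097), *RPL39* (-0.096 to 0.181), *VCL* (-0.341 to 0.040) and *POLR2A* (-0.343 to 0.028). The cause of these changes was not tested beyond the construction of each alternative. With 3 lines per group even the difference in *FGFR2* was not called by limma, so the lack of calls says little about smaller differences.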
